A study of Mus musculus with 15 samples.

Results

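Loss of *Casp2* in *Th-MYCN* neuroblastoma was examined in 8 of the 15 tumors of the series, 4 from *Th-MYCN/Casp2*-/- mice (MYCNC2ko118, MYCNC2ko144, MYCNC2ko176 and MYCNC2ko180) and 4 from *Th-MYCN* mice with intact *Casp2* (MYCN175, MYCN235, MYCN332 and MYCN391), all chosen by their genotype labels. Each library came from a single paraspinal tumor of the thorax of 1 mouse on a mixed Sv129/C57BL6 background, and all 8 mice carried the transgene. Tumor onset was at 10 to 21 weeks in the *Th-MYCN* mice and at 15 to 24 weeks in the *Th-MYCN/Casp2*-/- mice, and 2 of 4 and 3 of 4 mice were female. The other 7 tumors were *EμMyc* and *EμMyc/Casp2*-/- lymphomas of cervical lymph nodes. They entered through the low-count filter, the scaling of libraries, the shared estimate of spread and 1 comparison at the end. Poly(A) RNA was sequenced as short single-end reads, and the libraries held 13862487 to 17638029 reads in genes in the *Th-MYCN* group and 10353787 to 15681695 in the *Th-MYCN/Casp2*-/- group. Values are in CPM, the reads of a gene per TMM-scaled library size. Before this scaling, 3 reads correspond to 0.170 to 0.290 CPM in these libraries. Values per tumor are given in the order of the names above, *Th-MYCN* first.

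The transgene places human *MYCN* under the rat tyrosine hydroxylase promoter, so that it is expressed in neuroblasts of the sympathetic nervous system, the neural crest lineage that also gives chromaffin cells of the adrenal medulla. Sympathetic neuroblasts are held in their identity by a circuit of transcription factors (*Hand2*, *Gata2* and *Gata3* among them) and make catecholamines from tyrosine, whereas Schwann cell precursors and melanocytes are other branches of the crest. Caspase-2 is a protease that is activated on the PIDDosome (Pidd1 and Cradd), cleaves Mdm2 and Bid, and is known for limiting the survival of cells with an abnormal number of chromosomes. The tumors had been selected for absent or reduced vascularization, which limits what they show of the vessels. In bulk tissue, fewer cells of a type and less RNA per cell cannot be told apart.

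The deleted gene was first followed in each tumor. Differences are log2 fold changes of *Th-MYCN/Casp2*-/- over *Th-MYCN*, tested with edgeR's likelihood ratio test (LRT) and beside it with its stricter quasi-likelihood test (QLF), and FDR is the Benjamini-Hochberg adjusted p over all genes tested. *Casp2* (chromosome 6, 42264902 to 42282508) was at 125, 93.3, 76.0 and 106 CPM in the *Th-MYCN* tumors and at 80.2, 57.7, 39.6 and 54.5 CPM in the *Th-MYCN/Casp2*-/- tumors, so MYCNC2ko118 overlapped with MYCN332 and reads over the gene persisted in all 4 knockout tumors (log2 fold change -0.79, SE 0.245, LRT FDR 0.101, QLF FDR 0.327). Counts per gene do not separate the deleted exons from the rest of the transcript. The paper reports that genotyping and immunoblotting established the *Casp2* deletion in its tumor samples. Mouse *Mycn*, to which an untested share of the transgene's reads may align, was at 343, 419, 430.1 and 408 and 399, 296, 229.9 and 421 CPM (log2 fold change -0.25, LRT FDR 1). Of 12 caspase and PIDDosome genes tested, none was a differentially expressed gene by LRT, QLF or DESeq2. The 12 include *Apaf1* and exclude *Casp14*, which was at 0 in all 8 tumors. An unadjusted LRT p under 0.05 was found for 3 of the 12 (25%), beside 2.92% higher and 4.85% lower over all genes tested. These 3 were *Lrdd*, *Casp8* and the deleted gene *Casp2* itself. Log2 fold changes were 0.53 for *Lrdd*, the older symbol of *Pidd1*, the scaffold of the PIDDosome, 0.06 for *Cradd*, -0.80 for *Casp1*, -0.66 for *Casp8* and 0.27 for *Casp9*.

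Of 14880 genes tested, 121 (0.813%) were differentially expressed genes (DEGs), defined by an LRT FDR under 0.05 and more than a 2-fold difference. In the *Th-MYCN/Casp2*-/- tumors 28 genes (0.188%) rose and 93 (0.625%) fell, with the 2 genotypes fully separate for 18 of the 28 and 69 of the 93. By comparison, 438 genes (2.94%) had all 4 knockout tumors above all 4 *Th-MYCN* tumors and 547 (3.68%) had the reverse order over all genes tested. These shares are the ones to set beside the counts of calls and separate groups in the gene lists below. QLF, which allows for the uncertainty of each gene's spread, called 1 gene up (0.00672%) and 4 down (0.0269%), or 0.0336% in all, and had 1008 genes at an unadjusted p under 0.05. At an unadjusted LRT p under 0.05, 435 genes were higher (2.92%) and 722 lower (4.85%). The median fold was 4.40 among the 28 and 5.39 among the 93, and 46 of the 121 differed by more than 8-fold. The fit was repeated 8 times, each without one of the tumors, and 22 DEGs, 3 up and 19 down, were called every time. MYCN391 had the highest *Th-MYCN* value of 51 of the 93 fallen genes and MYCN175 the lowest of 48.

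The 5 QLF calls were *Rcn1*, *Dgkk*, *Astn2* and *Rftn1*, which fell, and *Vip*, which rose. *Rcn1* (chromosome 2, 105385948 to 105399319) encodes reticulocalbin 1, a calcium-binding protein of the endoplasmic reticulum, and was at 97.0, 218, 257 and 252 CPM in the *Th-MYCN* tumors against 8.57, 11.2, 7.23 and 11.2 CPM in the *Th-MYCN/Casp2*-/- tumors (log2 fold change -4.43, SE 0.289, LRT FDR 2.65e-37, QLF FDR 4.28e-06). All 4 knockout tumors were thus far below the lowest control, MYCN175. *Dgkk* (chromosome X, 6779306 to 6948363), a diacylglycerol kinase, was at 69.7, 90.9, 66.6 and 71.9 CPM against 7.20, 1.80, 3.09 and 1.30 CPM (log2 fold change -4.48, SE 0.484, LRT FDR 3.28e-12, QLF FDR 0.00136), with the controls close together and every knockout tumor below 8 CPM. *Astn2* (chromosome 4, 65380803 to 66404537), astrotactin 2 of neuronal migration, was at 7.15, 6.25, 3.69 and 3.27 CPM against 0.216, 0.129, 0.289 and 0.406 CPM (log2 fold change -4.27, SE 0.627, LRT FDR 2.81e-08, QLF FDR 0.0305). *Rftn1* (chromosome 17, 49993258 to 50190497), a protein of lipid rafts, was at 18.6, 27.6, 19.2 and 30.6 CPM against 7.06, 9.32, 8.29 and 10.7 CPM (log2 fold change -1.44, SE 0.236, LRT FDR 6.65e-06, QLF FDR 0.0305), a smaller change with narrow groups. Each of these 4 genes fell in all 8 fits with a tumor left out.

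Other DEGs with separate groups were spread over signaling, adhesion and ion channel genes. Among those that rose, *Kcna1*, a voltage-gated potassium channel, was at 1.47, 1.89, 2.83 and 2.84 CPM against 10.3, 6.62, 10.9 and 12.8 CPM (log2 fold change 2.16, LRT FDR 0.000836), and *Fam5b*, a neuronal gene also called *Brinp2*, was at 31.0, 40.4, 47.3 and 40.0 CPM against 226, 138, 218 and 56.1 CPM (log2 fold change 2.01, LRT FDR 0.00250). These 2 were called with any tumor left out, but *Fam5b* was not with sex as a covariate (log2 fold change 1.68, LRT FDR 0.0726). *Fat3*, an atypical cadherin, was near the floor in the controls (0 to 0.185 CPM) and at 2.38, 1.35, 0.675 and 4.22 CPM in the knockouts (log2 fold change 4.91, LRT FDR 0.000404). *Camk1*, a calmodulin-dependent kinase, rose by a log2 value of 1.56 (LRT FDR 0.0109), *Ablim1*, which binds actin, by 1.61 (LRT FDR 0.0166), and *Pld5*, a phospholipase D family member, by 2.55 (LRT FDR 0.00262). Among those that fell, *Rinl*, a Rab guanine nucleotide exchange factor, was at 26.9, 2.03, 20.3 and 3.09 CPM against 0.864, 1.16, 1.64 and 1.22 CPM (log2 fold change -3.42, LRT FDR 0.000248). *Rgs3*, a regulator of G protein signaling, was at 9.53, 58.8, 41.3 and 34.2 CPM against 6.63, 7.13, 5.30 and 7.80 CPM (log2 fold change -2.42, LRT FDR 0.000404), and *Cacng3*, an auxiliary subunit of glutamate receptors, at 52.2, 47.4, 39.4 and 20.4 CPM against 5.47, 3.98, 6.17 and 12.4 CPM (log2 fold change -2.51, LRT FDR 0.000351). *Faim2*, an inhibitor of Fas-mediated apoptosis, was at 17.8, 70.6, 72.7 and 65.8 CPM against 10.2, 3.15, 6.56 and 7.64 CPM (log2 fold change -3.04, LRT FDR 0.000913), and MYCN175 was well below the other 3 controls.

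**Figure D1:**
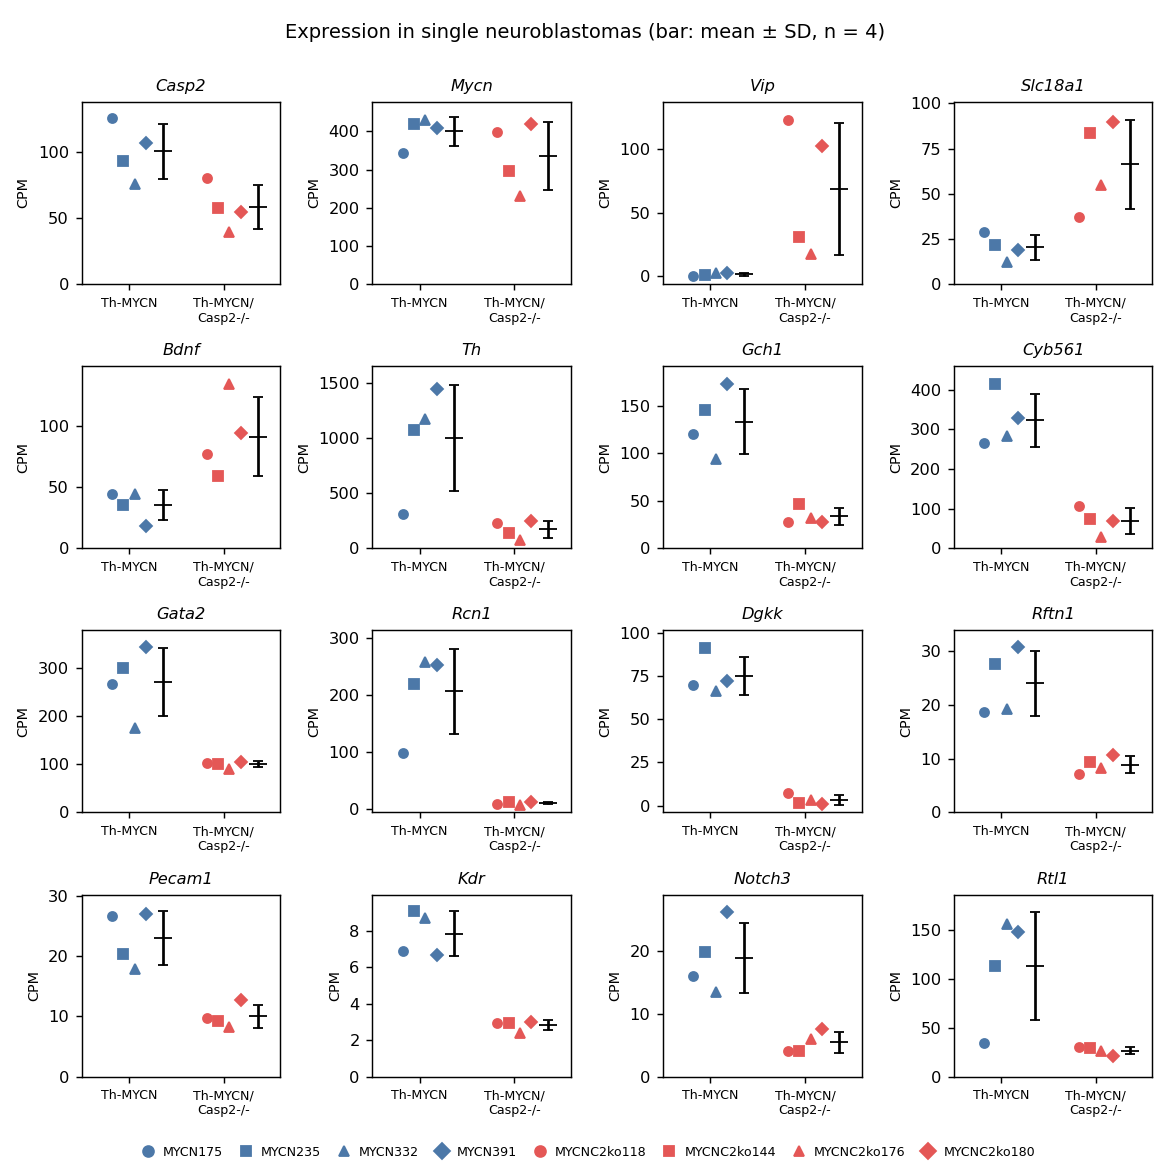
CPM (linear axis, one panel per gene) of 16 genes in the 4 *Th-MYCN* and 4 *Th-MYCN/Casp2*-/- tumors, with a point per tumor and the mean ± SD of each group. The genotypes overlapped for *Casp2* and *Mycn* and were separate for the other 14 genes.

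Genes of catecholamine synthesis and storage were lower in the *Th-MYCN/Casp2*-/- tumors as a list, though most members did not pass the test. Of 18 members tested, 1 rose and 2 fell, beside 0.188% risen and 0.625% fallen over all genes. In all, 16 of 18 were lower, and the median log2 fold change was -0.73 against 0.00 over all genes. The summed level of all its genes was 4177 to 4645 CPM in the *Th-MYCN* tumors and 1876 to 2634 CPM in the knockouts, without overlap, and over all alternatives the median lay at -0.77 to -0.54. *Gch1* (chromosome 14, 47153895 to 47189413), GTP cyclohydrolase 1, which makes the tetrahydrobiopterin cofactor of tyrosine hydroxylase, was at 120.3, 146, 93.6 and 173 CPM against 27.2, 47.0, 32.1 and 27.5 CPM (log2 fold change -1.99, SE 0.338, LRT FDR 3.06e-05, QLF FDR 0.0532). *Cyb561* (chromosome 11, 105933702 to 105945019), the cytochrome that passes electrons into chromaffin granules for dopamine β-hydroxylase, was at 265, 414, 283 and 329 CPM against 108, 72.7, 28.8 and 67.8 CPM (log2 fold change -2.22, SE 0.372, LRT FDR 3.06e-05, QLF FDR 0.0532). Both fell in all 8 fits with a tumor left out.

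*Th* itself (chromosome 7, 142892779 to 142899995), the rate-limiting enzyme, was at 314, 1075, 1175 and 1447 CPM in the controls and 227, 135, 75.9 and 246 CPM in the knockouts and did not pass (log2 fold change -2.55, SE 0.693, LRT FDR 0.0546, QLF FDR 0.220), although the groups were separate and MYCN175, the lowest control, was near the highest knockout. *Ddc*, which forms dopamine, was at 1593, 821, 860.3 and 771 CPM and 741, 478, 1236 and 746 CPM (log2 fold change -0.34), with MYCN175 highest and MYCNC2ko176 next. The 2 vesicular monoamine transporters differed in direction. *Slc18a1* (VMAT1, the chromaffin form) was at 28.8, 21.6, 12.2 and 18.5 CPM against 37.2, 83.6, 54.7 and 89.7 CPM (log2 fold change 1.71, SE 0.376, LRT FDR 0.00392, QLF FDR 0.174) and was the member that rose. *Slc18a2* (VMAT2, the neuronal form) was at 251, 227, 271 and 188 CPM against 167, 73.3, 41.2 and 105 CPM and was not called (log2 fold change -1.28, LRT FDR 0.137). Of the granule proteins, *Chga* was at 311, 386, 316 and 456 CPM against 206, 158, 288 and 282 CPM, with separate groups, and *Chgb* at 578, 545, 262 and 579 CPM against 350.1, 257, 113 and 69.9 CPM, with overlap; neither was called (log2 fold changes -0.65 and -1.31). The chromaffin and bridge cell list, which shares *Slc18a1*, *Chga*, *Chgb* and *Pnmt* with this one, had 12 members tested, *Slc18a1* as its one call and a median of -0.57.

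The peptide gene *Vip* moved the other way. It encodes vasoactive intestinal peptide, made by sympathetic neurons of the cholinergic type and by other peptidergic neurons. It was at 0, 0.799, 2.48 and 2.35 CPM in the *Th-MYCN* tumors, 1 of them without a read, and at 123, 31.2, 17.7 and 102 CPM in the *Th-MYCN/Casp2*-/- tumors (log2 fold change 5.60, SE 0.876, LRT FDR 0.000210, QLF FDR 0.0376). Every knockout tumor was above every control, and *Vip* rose in all 8 fits with a tumor left out. Because the genes with the clearest changes of this lineage include a peptide and an enzyme whose transcription is known to respond to cyclic AMP, the promoters of *Vip*, *Gch1* and *Th* are shown from RefSeq (GRCm38.p6, 250 bases before to 50 after the start, in the direction of transcription), with matches to the cyclic AMP response element TGACGTCA or its half-site (CGTCA, or TGACG on the other strand) in capitals.

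*Vip*, chr10:5638968-5639267, plus strand: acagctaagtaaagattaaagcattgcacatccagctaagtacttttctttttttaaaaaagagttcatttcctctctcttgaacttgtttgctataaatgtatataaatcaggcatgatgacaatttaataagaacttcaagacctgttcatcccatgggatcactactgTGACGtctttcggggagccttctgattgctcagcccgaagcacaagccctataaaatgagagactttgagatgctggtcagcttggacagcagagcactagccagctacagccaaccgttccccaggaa
*Gch1*, chr14:47189364-47189663, minus strand: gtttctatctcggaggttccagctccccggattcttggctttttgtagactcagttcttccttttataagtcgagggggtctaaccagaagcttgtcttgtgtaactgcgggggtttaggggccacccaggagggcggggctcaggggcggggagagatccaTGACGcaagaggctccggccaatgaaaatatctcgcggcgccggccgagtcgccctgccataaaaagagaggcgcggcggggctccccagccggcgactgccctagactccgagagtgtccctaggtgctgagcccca
*Th*, chr7:142899946-142900245, minus strand: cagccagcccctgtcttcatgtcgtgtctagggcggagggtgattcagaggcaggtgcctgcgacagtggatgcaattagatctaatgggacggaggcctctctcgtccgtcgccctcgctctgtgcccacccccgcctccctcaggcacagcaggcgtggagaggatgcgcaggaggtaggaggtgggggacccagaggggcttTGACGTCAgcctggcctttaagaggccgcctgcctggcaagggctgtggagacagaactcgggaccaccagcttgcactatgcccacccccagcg

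*Th* held the full element, which overlaps 2 half-sites, and *Vip* and *Gch1* held 1 half-site each. On either strand the full element was found in 507 of 27025 mouse promoters of this length (1.88%) and the half-site in 5681 (21.0%), so the half-site is common. The letters GATAA, searched on both strands because *Gata2* fell, were in none of the 3 windows and in 6976 promoters (25.8%). These matches describe letters only, and the mouse *Th* promoter shown is not the rat promoter of the transgene.

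Among adrenergic core transcription factors, *Gata2* was the single DEG. It is a zinc finger factor of sympathetic neuron differentiation, and was at 266, 299, 176 and 343 CPM against 103, 101, 90.8 and 105 CPM (log2 fold change -1.44, SE 0.253, LRT FDR 4.96e-05, QLF FDR 0.0812). The 4 knockout tumors lay within 90.8 to 105 CPM, below every control, and *Gata2* fell in all 8 fits. Of the 20 members tested the others were not called, with 13 higher and 7 lower and a median of 0.10. *Hand2* differed by 0.20, *Gata3* by 0.86 and *Isl1* by 0.05 on the log2 scale. *Hand2*, a defining factor of the lineage, was thus present in every tumor, at 530 to 1000.1 CPM in the controls and 606 to 1056 CPM in the knockouts. Mesenchymal-state factors, 13 tested, had no call and a median of -0.58. *Runx1* alone had separate groups (log2 fold change -0.93).

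The neuropeptide list had 9 members tested, with *Vip* the only call, and a median of 1.24 that ranged over 0.12 to 1.78 among alternatives. *Penk* (enkephalin) was at 0.244, 0.218, 0.115 and 0.494 CPM against 1.37, 7.13, 0.289 and 0.244 CPM and *Gal* (galanin) at 2.75, 0.872, 1.15 and 0.741 CPM against 1.30, 1.29, 9.64 and 1.30 CPM, with overlap for both. *Npy*, the peptide stored with noradrenaline, was at 48.6, 89.4, 22.4 and 15.8 CPM against 24.8, 5.40, 1.83 and 7.96 CPM (log2 fold change -2.14). Peptides were thus heterogeneous between tumors of a group, as seen also for *Pnoc* (prepronociceptin), at 154, 5.59, 4.50 and 2.72 CPM against 3.96, 35.1, 509 and 9.83 CPM. The cholinergic list had 3 members tested, no call and a median that changed sign between alternatives (-0.56 to 1.35). *Slc18a3*, the vesicular acetylcholine transporter, was at 38.1, 0.436, 0.462 and 1.17 CPM against 11.2, 7.77, 106 and 1.30 CPM, highest in MYCNC2ko176 and MYCN175.

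Of 11 receptors and ligands of the neurotrophin, Ret and Alk systems, *Bdnf* was called. Brain-derived neurotrophic factor was at 44.7, 35.7, 44.1 and 18.0 CPM against 77.2, 58.9, 135 and 94.1 CPM (log2 fold change 1.36, SE 0.367, LRT FDR 0.0402, QLF FDR 0.278), and was still called in 2 of the 8 fits that omit a tumor. Its receptor *Ntrk2* was at 6.47, 11.3, 21.4 and 13.0 CPM against 20.3, 26.9, 36.3 and 23.4 CPM (log2 fold change 1.04), with overlap. *Ret* and *Alk* differed by -0.57 and -0.14 and were not called. Neuronal cytoskeleton and synapse genes had no call among 20, 16 being higher and 4 lower, and a median of 0.22. *Dcx*, a microtubule protein of migrating neuroblasts, had separate groups (log2 fold change 0.52, LRT FDR 0.283).

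Calls in the Schwann, melanocyte and crest lists stand beside a share of 0.813% over all genes. Of 13 Schwann cell genes tested 11 were higher, none was called, and the median was 0.55 (0.49 to 0.86 over alternatives). *S100b* was at 0.977, 1.02, 1.33 and 1.17 CPM against 2.45, 2.18, 7.71 and 2.44 CPM (log2 fold change 1.70, LRT FDR 0.277) and *Cdh19*, a cadherin of Schwann cell precursors, at 1.71, 3.20, 6.35 and 3.15 CPM against 8.57, 7.77, 7.71 and 6.66 CPM (log2 fold change 1.09, LRT FDR 0.485), both separate. *Sox10*, the factor that defines the glial branch, was at 8.86, 8.42, 22.7 and 8.83 CPM against 13.1, 16.1, 24.7 and 26.5 CPM, with overlap. Of the melanocyte list 4 of 12 members were tested and 2 fell. These were *Mitf*, at 3.66, 10.4, 4.27 and 19.3 CPM against 2.45, 2.76, 1.64 and 1.71 CPM (log2 fold change -2.13, LRT FDR 0.0413), and *Ednrb*, the endothelin B receptor, at 8.55, 6.25, 4.39 and 3.40 CPM against 2.16, 1.67, 1.45 and 1.54 CPM (log2 fold change -1.72, LRT FDR 0.0195). The pigment enzyme genes *Tyr* and *Dct* were at 0 in all 8 tumors, so the 2 genes are given by name and not as a measure of melanocytes. Of 7 neural crest progenitor genes (median 0.23), *Tfap2a*, an early crest factor, was called up (log2 fold change 5.19, LRT FDR 0.0247) on MYCNC2ko118, at 47.8 CPM, whereas the other 3 knockouts were at 0.514, 0.964 and 1.06 CPM. Without MYCNC2ko118 its log2 fold change was 1.30 and it was not called. Over the 4 lineage lists with no LRT call (mesenchymal-state, cholinergic, neuronal and Schwann), QLF and DESeq2 called none of 49 members. An unadjusted LRT p under 0.05 was found for 8 higher and 3 lower members (22.4%), beside 2.92% higher and 4.85% lower over all genes. The lists were chosen with earlier results of these data known, so this share is not a test.

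**Figure D2:**
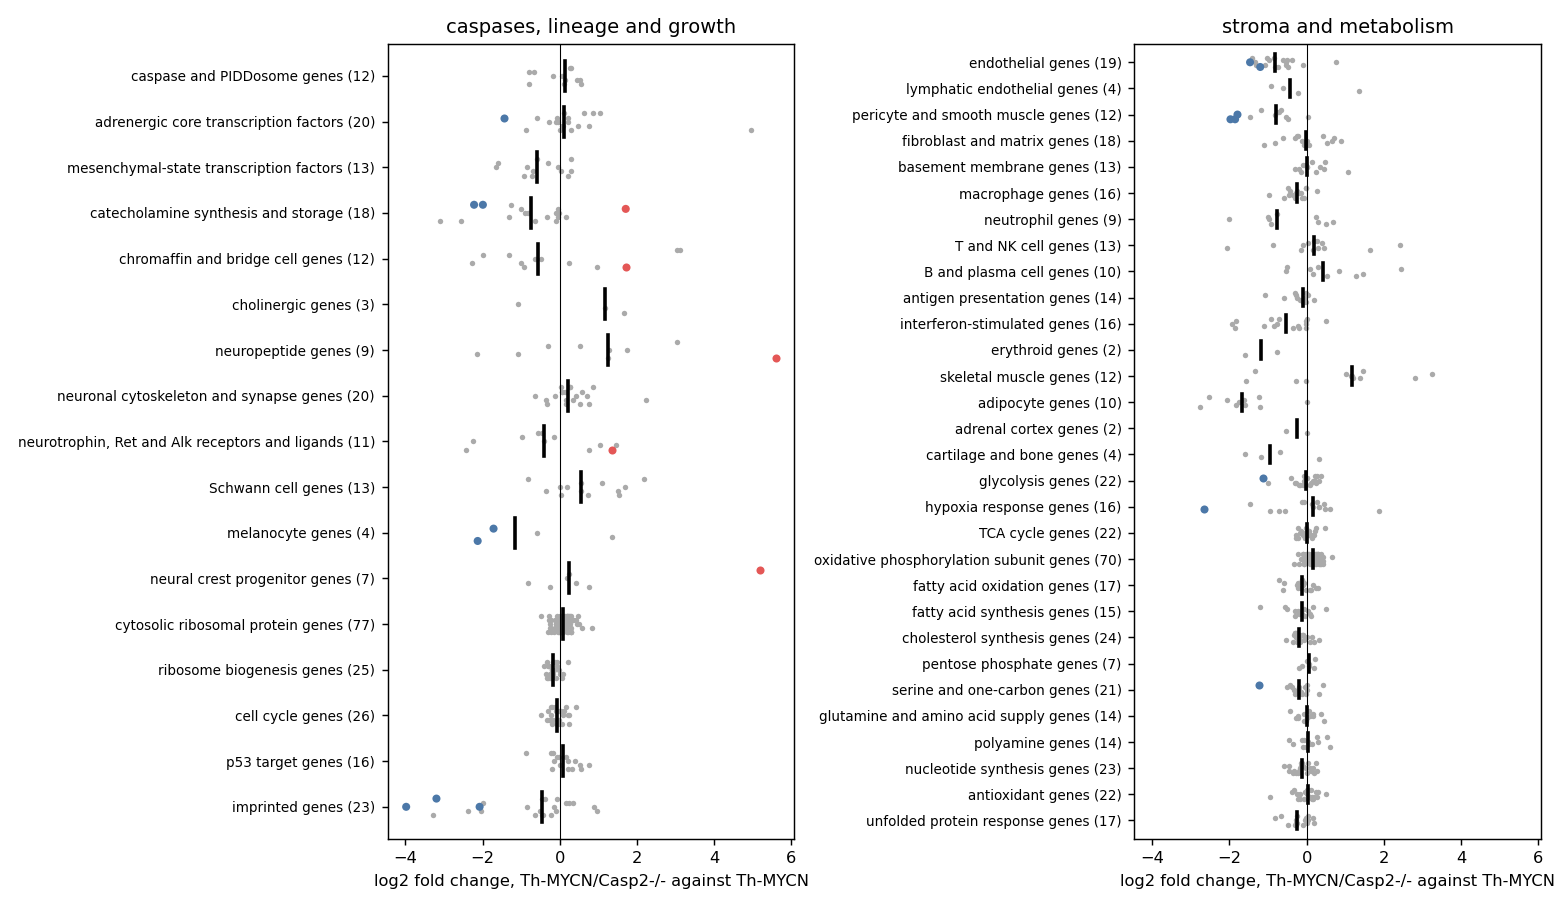
Log2 fold change (*Th-MYCN/Casp2*-/- over *Th-MYCN*) of the tested members of 47 gene lists, with a point per gene, a black bar at each list's median and DEGs in color. The median is -0.73 for the catecholamine, -0.81 for the endothelial and -0.79 for the pericyte list, and between -0.25 and 0.16 for every metabolic list.

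Among stromal lists, vessel genes were lower in the *Th-MYCN/Casp2*-/- tumors. Of 19 endothelial genes tested 18 were lower, 6 had separate groups and 2 fell, with a median of -0.81 (-0.96 to -0.56 over alternatives). Over all genes 3.68% were separate in this direction and 0.625% fell. *Pecam1*, the junction molecule CD31, was at 26.6, 20.4, 17.9 and 27.0 CPM against 9.72, 9.32, 8.29 and 12.7 CPM (log2 fold change -1.20, SE 0.237, LRT FDR 0.000552, QLF FDR 0.0812) and fell in all 8 fits. *Kdr*, the main VEGF receptor, was at 6.90, 9.08, 8.71 and 6.67 CPM against 2.95, 2.96, 2.41 and 3.01 CPM (log2 fold change -1.46, LRT FDR 0.0308) and kept its call in 1 of 8 fits. *Cdh5*, VE-cadherin, was at 27.6, 14.4, 12.4 and 10.8 CPM against 7.20, 3.98, 4.15 and 10.7 CPM and was not called (log2 fold change -1.32, LRT FDR 0.156), as was *Mmrn2* (log2 fold change -1.34, LRT FDR 0.148). The summed endothelial level was 132 to 222 CPM against 87.1 to 127 CPM, where MYCNC2ko180, at 127 CPM, came just below MYCN391, at 132 CPM.

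Of 12 pericyte and smooth muscle genes 11 were lower and 3 fell (0.625% over all genes), with a median of -0.79. They were *Rgs5*, a pericyte regulator of G protein signaling, at 31.3, 22.2, 11.5 and 15.6 CPM against 3.89, 7.52, 3.47 and 7.39 CPM (log2 fold change -1.85, LRT FDR 0.0265), *Notch3*, the mural cell Notch receptor, at 16.1, 19.9, 13.6 and 26.2 CPM against 4.11, 4.11, 6.07 and 7.64 CPM (log2 fold change -1.79, LRT FDR 0.0314), and *Acta2*, smooth muscle actin, at 22.4, 31.0, 8.43 and 20.0 CPM against 1.87, 5.01, 2.99 and 11.0 CPM (log2 fold change -1.97, LRT FDR 0.0402). The summed level of all 13 genes listed was 204 to 247 CPM against 108 to 167 CPM, without overlap, but none of the 3 calls remained with sex as a covariate, in 5 of the 8 fits that omit a tumor, or without MYCN175 and MYCNC2ko118 together. Fibroblast genes (18 tested, median -0.01) and basement membrane genes (13 tested, median 0.02) had no call. *Col3a1*, a fibrillar collagen with the highest mean level of the fibroblast list, was at 216, 81.6, 143 and 181 CPM against 157, 58.0, 177 and 234 CPM.

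MYCN175 and MYCNC2ko118 held skeletal muscle transcripts. The summed level of all 15 muscle genes listed, 12 of them tested, was 312 CPM in MYCN175 and 543 CPM in MYCNC2ko118, and 9.74 to 20.9 CPM in the other 6, with *Acta1*, skeletal actin, at 86.2 and 71.7 CPM. Without these 2 tumors 27 genes rose and 89 fell. Adipocyte genes were lower in 9 of 10 (median -1.68, no call), with summed levels of 118 to 350.1 CPM against 47.9 to 102 CPM, and *Pparg* alone had separate groups (log2 fold change -1.61). The part of adjacent tissue in the DEGs was not tested.

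Immune lists had no call. Macrophage genes were lower in 15 of 16 (median -0.25), with *Lyz2* at 310.5, 354, 305 and 468 CPM against 166, 218, 395 and 439 CPM. Antigen presentation genes had a median of -0.08. Most T and NK cell and neutrophil genes had too few reads in the neuroblastomas to be compared and passed the low-count filter through the lymphomas. Of 13 T and NK cell genes tested 11 were under 1 CPM in all 8 tumors, the T cell receptor subunits *Cd3d*, *Cd3e* and *Cd3g* among them, as were 8 of 9 neutrophil genes and 3 of 10 B and plasma cell genes, and changes were not detectable there at this depth. The short lists of lymphatic endothelium, erythroid cells, adrenal cortex and cartilage, with 2 to 4 members tested, had medians of -0.42, -1.18, -0.26 and -0.94 and no call. Interferon-stimulated genes were lower in 14 of 16 (median -0.54), and 2 of them, *Rsad2* (viperin) and *Cxcl10*, had separate groups without a call. *Rsad2* was at 1.16, 1.31, 4.33 and 3.33 CPM against 0.288, 0.835, 0.868 and 0.650 CPM (log2 fold change -1.93, LRT FDR 0.103). Over the 14 stromal lists with no LRT call, DESeq2 made none among 143 members. QLF could add none, since each of its 5 calls was also an LRT call. An unadjusted LRT p under 0.05 was found for 11 of the 143 (7.69%), beside 2.92% higher and 4.85% lower over all genes.

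**Figure D3:**
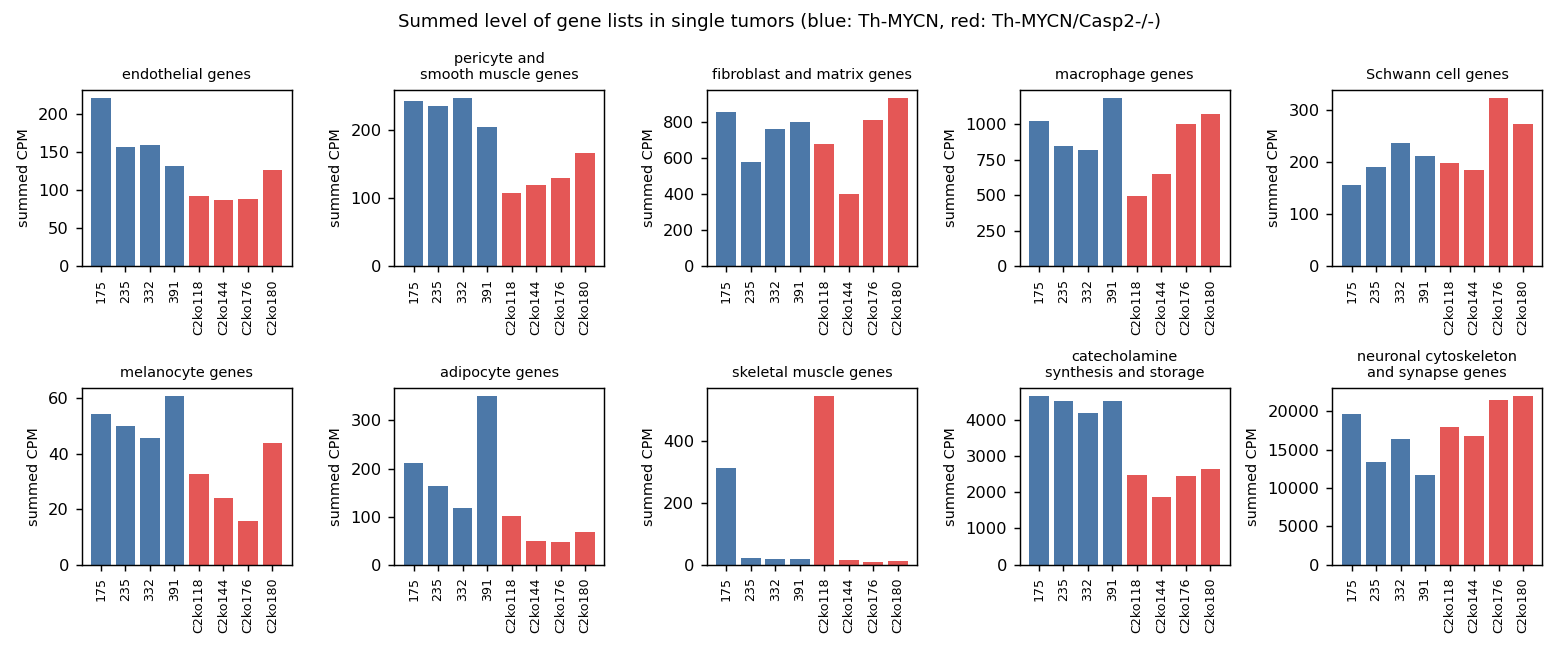
Summed CPM of 10 gene lists in each of the 8 tumors (bars from 0, colored by genotype). The endothelial, pericyte, adipocyte and catecholamine sums do not overlap between genotypes, nor does the melanocyte sum, which is mostly *Kit* (not called), and the skeletal muscle sum is high in MYCN175 and MYCNC2ko118 alone.

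Metabolic programs held 3 DEGs. Of 304 memberships tested in 14 lists, none rose and 3 fell, beside 0.188% risen and 0.625% fallen over all genes. List medians lay between -0.25 and 0.16. *Hk2*, hexokinase 2 at the entry of glycolysis, was at 39.6, 21.8, 28.0 and 17.4 CPM against 16.5, 9.06, 11.1 and 12.6 CPM (log2 fold change -1.12, SE 0.260, LRT FDR 0.00701, QLF FDR 0.159). *Shmt2*, the mitochondrial serine hydroxymethyltransferase that feeds one-carbon units to nucleotide synthesis, was at 48.3, 99.8, 55.5 and 117 CPM against 29.1, 32.3, 32.1 and 43.2 CPM (log2 fold change -1.23, SE 0.274, LRT FDR 0.00392, QLF FDR 0.150). Both had separate groups and kept the call in 5 of 8 fits. *Car12*, a carbonic anhydrase of the hypoxia list, was at 4.21, 29.2, 8.54 and 28.3 CPM against 4.90, 2.12, 2.99 and 1.06 CPM (log2 fold change -2.66, LRT FDR 0.00250), called in all 8 fits although the groups overlapped, but not with sex (FDR 0.114) or onset (FDR 0.0727) as a covariate. The rest of the same pathways did not follow these 3 genes past the test. Glycolysis had a median of -0.01 over 22 genes, the hypoxia response 0.15 over 16 and serine and one-carbon metabolism -0.19 over 21, of which 17 were lower. The summed serine and one-carbon level was 1600 to 1764 CPM in the controls and 1427 to 1562 CPM in the knockouts, without overlap. The glycolysis and hypoxia sums overlapped. In the glycolysis list *Eno1* was at 0 in all 8 tumors and *Gapdh* at 3.98 to 8.31 CPM.

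Oxidative phosphorylation subunits were higher in 57 of 70 (median 0.16), and no subunit was called. Their summed level was 11651, 11242, 12211 and 11081 CPM in the controls and 11222, 11429, 14732 and 13376 CPM in the knockouts. MYCNC2ko176 and MYCNC2ko180 were thus above every control, and MYCNC2ko118 and MYCNC2ko144 lay within the controls. *Cox4i1* was at 465, 459.9, 499 and 434 CPM against 502, 511, 611 and 689 CPM (log2 fold change 0.32) and *Uqcrh* at 128, 124, 142 and 122 CPM against 143, 155, 189 and 185 CPM (log2 fold change 0.38), which with *Ndufa2* and *Ndufv1* made up the 4 subunits with separate groups. Over all genes 2.94% were separate upward and 3.68% downward. Cholesterol synthesis was lower in 19 of 24 (median -0.19), fatty acid oxidation in 12 of 17 (median -0.11) and the unfolded protein response in 12 of 17 (median -0.25). *Hadh*, a dehydrogenase of β-oxidation, was at 39.0, 31.5, 29.0 and 33.8 CPM against 15.1, 19.1, 28.5 and 19.0 CPM, separate and not called (log2 fold change -0.71). TCA cycle, glutamine supply, polyamine, pentose phosphate, fatty acid synthesis, nucleotide synthesis and antioxidant genes had medians of 0.00, 0.01, 0.04, 0.06, -0.11, -0.11 and 0.03. Over the 11 metabolic lists with no LRT call, DESeq2 called none of 245 memberships, and QLF, whose calls were all LRT calls, could add none. An unadjusted LRT p under 0.05 was found for 5 (2.04%), beside 2.92% higher and 4.85% lower over all genes. They were *Ndufa1*, *Hadh*, *Cad*, *Hmox1* and *Prdx4*, named after their values were seen.

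Growth lists held no DEG outside the imprinted genes. Cytosolic ribosomal protein genes were higher in 53 of 77 (median 0.07) and ribosome biogenesis genes, typical targets of MYC proteins, lower in 22 of 25 (median -0.17). Cell cycle genes had a median of -0.07 and p53 target genes of 0.09. None of the 144 members of these 4 lists was called by LRT or DESeq2, and QLF, whose calls were all LRT calls, could add none. An unadjusted LRT p under 0.05 was found for 5 (3.47%), beside 2.92% higher and 4.85% lower over all genes. They were *Rps24*, *Rps15a*, *Gar1*, *Mcm2* and *Lrdd*, named after their values were seen.

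Imprinted genes were lower in 18 of 23 (median -0.46), and 3 fell (0.625% over all genes). *Rtl1* (chromosome 12, 109564900 to 109604418), a retrotransposon-derived gene of the *Dlk1* to *Meg3* cluster, was at 34.6, 113, 156 and 148 CPM against 30.4, 28.8, 26.0 and 21.6 CPM (log2 fold change -2.08, LRT FDR 0.00116), with MYCN175 only just above the knockouts, and was called in all 8 fits. *Grb10*, an adaptor that limits insulin receptor signaling, was at 8.00, 5.30, 33.5 and 302 CPM against 16.4, 7.32, 7.62 and 6.74 CPM (log2 fold change -3.19, LRT FDR 0.0488), which without MYCN391 came to -0.71 and was not called, and *Ascl2*, a basic helix-loop-helix factor, at 0.428, 4.79, 6.29 and 9.20 CPM against 0.648, 0.129, 0 and 0.487 CPM (log2 fold change -3.98, LRT FDR 0.0308). In the same cluster as *Rtl1*, *Dlk1* was at 792, 2147, 2191 and 2404 CPM against 807, 408, 615 and 81.3 CPM and was not called (log2 fold change -1.98, LRT FDR 0.406). *Mir431*, whose hairpin lies within *Rtl1* on the opposite strand, also fell, from 0.550, 3.49, 5.71 and 4.45 CPM to 0.504, 0.321, 0.482 and 0.406 CPM (log2 fold change -3.03, LRT FDR 0.0147). Because the libraries did not keep strand, reads of *Mir431* and *Rtl1* cannot be told apart.

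*Mir24-1*, with its hairpin inside *2010111I01Rik* and, on the other strand, *Fancc*, was called up at 0.672, 0.218, 0.289 and 0.185 CPM against 4.03, 3.21, 1.35 and 2.44 CPM (log2 fold change 2.98, LRT FDR 0.00250). Poly(A) libraries count reads over the precursor locus and not the mature strand. The mature sequences from RefSeq are shown to identify the products of the 2 loci, with the seed, bases 2 to 8, in capitals. No seed was shared between the 2 loci.

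mmu-miR-431-5p: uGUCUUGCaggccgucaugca
mmu-miR-431-3p: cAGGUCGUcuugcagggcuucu
mmu-miR-24-1-5p: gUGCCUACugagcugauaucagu
mmu-miR-24-3p: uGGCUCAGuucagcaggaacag

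Expression was also compared by chromosome, since loss of caspase-2 is known to let aneuploid cells survive and a gain or loss of a chromosome would shift its genes together. For each tumor the median deviation of log2 CPM from the mean of the 8 tumors was taken over the tested genes of each chromosome. The SD of these medians over the 19 autosomes was 0.162, 0.0603, 0.0878 and 0.0801 in the *Th-MYCN* tumors and 0.0799, 0.122, 0.140 and 0.125 in the *Th-MYCN/Casp2*-/- tumors. The means differed by 0.0192 on the log2 scale (2-sided exact permutation test, p = 0.514; the smallest p that 70 splits allow is 0.0286), and the control MYCN175 had the widest spread of all. Without MYCN175 the difference was 0.0376 (exact permutation test, p = 0.171).

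Most of the wide shifts were in single tumors or differed between tumors of a group. MYCN175 was higher over chromosome 1 by 0.36 and over chromosome 6, which carries *Casp2*, by 0.33 on the log2 scale, whereas the other 3 *Th-MYCN* tumors were between -0.06 and -0.01 on both. MYCNC2ko176 was higher over chromosome 14 by 0.32. MYCNC2ko180 was higher over chromosomes 7 and 17 by 0.22 and 0.21, and MYCNC2ko144 was lower over chromosomes 15 and 17 by values of -0.22 and -0.20 and higher over chromosome 18 by 0.21. Chromosome 3 was high in MYCN175, MYCN391 and MYCNC2ko176 (0.23, 0.23 and 0.20) and low in MYCN332, MYCNC2ko118 and MYCNC2ko180 (-0.19, -0.16 and -0.20), and so varied within both genotypes. These values are of RNA, and the number of chromosomes was not measured.

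Chromosome 5 was the single chromosome of 20 with separate groups, at 0.02, 0.16, 0.17 and 0.14 in the controls and -0.19, -0.12, -0.03 and -0.12 in the knockouts, a difference of -0.24 (exact permutation test, p = 0.0286, 0.571 after Benjamini-Hochberg adjustment over 20 chromosomes). Chromosome 5 carried 1 risen and 9 fallen DEGs among 912 genes (1.10%), near the 0.813% over all genes tested. Around *Casp2*, where genes linked to the deleted allele can differ by strain, 1 of 174 genes within 15 Mb was a DEG. This share of 0.575% was also near that of all genes. The gene was *Zc3hav1*, which rose. The median there was -0.13, on the chromosome that was shifted in MYCN175.

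The effect of *Casp2* loss was set against that in the lymphomas, to ask whether these differences belong to the neuroblastomas. The interaction of genotype and tumor type passed an LRT FDR of 0.05 for 136 genes (0.914%) and for 30 of the 121 DEGs, which had been selected by the neuroblastoma contrast that enters it, so their share is not a test. Of the 121, *Megf6* alone also had an LRT FDR under 0.05 between lymphoma genotypes, in the opposite direction (log2 fold change -3.58 in the neuroblastomas and 4.29 in the lymphomas). For *Rcn1* the log2 fold change was -4.43 in the neuroblastomas and 0.32 in the lymphomas (interaction -4.74, SE 0.42, LRT FDR 1.28e-23). For *Gch1* it was -1.99 and 0.11 (interaction LRT FDR 0.0118), for *Cyb561* -2.22 and 0.02 (LRT FDR 0.0228), and for *Pecam1* -1.20 and 0.22 (LRT FDR 0.0106). The difference for *Gata2* did not pass (interaction -1.49, SE 0.47, LRT FDR 0.105), nor did that for *Vip* (interaction 5.51, SE 1.86, LRT FDR 0.169). The lymphoma log2 fold change of *Vip* was 0.09 with an SE of 1.64, so its effect in the lymphomas was poorly measured.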

How the data were processed

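Poly(A) RNA of 15 mouse tumors, 1 library per mouse, was sequenced as single-end reads. The authors aligned the reads to mm10/GRCm38 with STAR and deposited counts per gene, without normalization, for either strand and for each strand. The release of the gene annotation is not given in the sources used here. The second strand column was used, as in the study. The 2 strand columns each held about equal shares of the reads (column 4 held 49.6 to 50.2% of the either-strand count), so these libraries did not keep strand, the column holds only part of the usable reads, and overlapping or antisense genes cannot be told apart.

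The software was edgeR 4.0.16, with DESeq2 1.42.0 as an alternative and limma 3.58.1, under R 4.3.3. Genes over 1 CPM in at least 3 of 15 tumors were kept (14880 of 23329), scaled by TMM and fitted with estimateDisp and 4 group means (biological coefficient of variation 0.395). A gene was called by the LRT where its FDR was under 0.05 and its log2 fold change beyond 1 in either direction, which is relative to a median over all genes of -0.002. SE is that of the log2 fold change. CPM on the log2 scale had a prior count of 2. Labels give separate mice, so p-values measure the spread between mice. No 2 libraries of a group agreed within sampling noise (chi-square per degree of freedom 16.8 to 73.1 over 12 pairs). Intervals and the 3-read floor cover counting error only. Sex, used as a covariate, came from the study's sample table and matched *Xist* in 8 of 8 tumors.

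Named genes were the caspase genes, the 10 up and 15 down DEGs of smallest FDR with separate groups, all QLF DEGs, all DEGs on a list, and per list up to 3 members with separate groups and, for cell types, up to 3 of highest mean CPM, with those marked as chosen later. *Penk*, *Gal*, *Npy*, *Pnoc*, *Slc18a3*, *Ntrk2*, *Ntrk3*, *Ret*, *Alk*, *Dlk1*, *Megf6*, *Zc3hav1*, *Cdh5*, *Slc18a2*, *Gata3*, *Sox10*, *Mir431*, *Fcgr4*, *Clec4a1*, *Clec7a*, *Fgr* and further list members whose difference alone is given were added after their values were seen. The members and the 47 lists were chosen with earlier results of these data known. Alternatives were QLF, DESeq2, RLE factors, no low-count filter, the 8 neuroblastomas only, sex or onset as a covariate, either-strand counts and leaving out each tumor. 9 list genes were matched by an older symbol. Chromosome positions were those of RefSeq GRCm38.p6 for 14783 genes (99.3%), and chromosome medians used all tested genes on a chromosome. Single values of some list members are not reported here, though the counts and medians of their lists include them. Methods were tested on simulated data.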

Additional observations from a re-analysis of the deposited data

Results flagged for a closer look

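A tumor far from the other 3 of its group was found in 42 group and gene pairs of 326 over 162 genes and the chromosome spread (its gap to the nearest value, over the whole range, was beyond Dixon's 95% critical value, which chance alone exceeds in about 1 in 20 groups). Muscle transcripts accounted for 6 of the 42. Of the 162 genes, 21 were named after their values were seen. *Acta1* was at 86.2 CPM in MYCN175 and 71.7 CPM in MYCNC2ko118, *Myh1* at 37.4 and 97.6 CPM and *Tnnt3* at 35.2 and 82.2 CPM. MYCN175 was also high for *Ddc* (1593 CPM), *Isl1* (1015 CPM), *Pnoc* (154 CPM), *Ntrk3* (62.9 CPM), *Gata3* (215 CPM) and *Slc18a3* (38.1 CPM) and low for *Faim2* (17.8 CPM), *Rpl9* (6.11 CPM), *Dlk1* (792 CPM) and *Megf6* (1.10 CPM). MYCN391 was high for *Grb10* (302 CPM), *Ifit2* (32.6 CPM), *Casp1* (5.19 CPM), *Fcgr4* (124 CPM), *Clec4a1* (30.9 CPM) and *Cd79b* (4.69 CPM). MYCN235 stood apart for *Hmox1* (46.1 CPM), and MYCN332 for *Pdia6* (212 CPM), *Sox10* (22.7 CPM) and *Chgb* (262 CPM).

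In the knockouts, MYCNC2ko118 was high for *Tfap2a* (47.8 CPM) and stood apart for *Grb10* (16.4 CPM), *Ntrk3* (10.6 CPM), *Ret* (17.2 CPM) and the adipocyte gene *Fabp4* (48.3 CPM). MYCNC2ko176 stood apart for *Casp8* (4.82 CPM), *Casp12* (3.95 CPM), *Kdr* (2.41 CPM), *S100b* (7.71 CPM), *Gal* (9.64 CPM), *Pnoc* (509 CPM), *Slc18a3* (106 CPM) and *Rps24* (624 CPM). MYCNC2ko144 stood apart for *Cd79b* (3.34 CPM) and *Penk* (7.13 CPM), and MYCNC2ko180 for *Cidea* (16.2 CPM).

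The effect of *Casp2* loss differed between the tumor types for 15 named genes by the interaction term (edgeR LRT, FDR under 0.05), given as the neuroblastoma minus the lymphoma log2 fold change. It was positive for *Fat3* (5.46), *Kcna1* (6.57) and *Pld5* (6.65). The fit gave *Kcna1* and *Pld5* lymphoma changes of -4.40 and -4.10 with no finite SE, because a lymphoma group had no read, so these and the interaction values depend on the fit and are not measured sizes. Their neuroblastoma log2 fold changes were 2.16 (LRT FDR 0.000836) and 2.55 (LRT FDR 0.00262). It was negative for *Megf6* (-7.86), *Rcn1* (-4.74), *Astn2* (-4.76), *Rinl* (-3.44), *Mitf* (-3.21), *Rsad2* (-3.13), *Rgs3* (-2.90), *Cyb561* (-2.24), *Gch1* (-2.11), *Hk2* (-1.43), *Pecam1* (-1.42) and *Rftn1* (-1.23). Since most of these were named for their change in the neuroblastomas, the count is no measure of how often the tumor types differ.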

How the results depend on the processing

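The direction of the comparison, more genes down than up, held under every alternative, but the number of DEGs did not. Against 28 up and 93 down, QLF called 1 and 4, and 1 and 3 on either-strand counts. Fitting the neuroblastomas alone gave 97 and 180, adding onset to that fit 134 and 156, and sex as a covariate 11 and 43. DESeq2 (33 and 83), RLE factors (28 and 87), no low-count filter (21 and 89), either-strand counts (21 and 76) and, added after seeing the data, both muscle-bearing tumors left out (27 and 89) stayed within 1.5 times. Of the 121 DEGs, 104 were also called by DESeq2, 86 on either-strand counts, 91 with onset and 52 with sex. Leaving out each tumor gave 5 to 53 up and 23 to 134 down: 53 and 134 without MYCN175, 5 and 35 without MYCN235, 7 and 23 without MYCN391, 10 and 43 without MYCNC2ko118, 8 and 37 without MYCNC2ko144 and 22 and 53 without MYCNC2ko176. The cause was not tested.

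*Casp2* lay at -0.98 to -0.63 on the log2 scale with each tumor left out and was never a DEG. Its LRT FDR in these fits ran from 0.0362 to 0.408, so at its lowest it passed the FDR and missed only the 2-fold cut. Of genes not called, *Cradd* (-0.024 to 0.12), *Casp12* (-0.075 to 0.30), *Alk* (-0.45 to 0.057), *Gal* (-0.084 to 1.86), *Pnoc* (-1.35 to 5.04) and *Slc18a3* (-0.56 to 5.50) changed sign when a tumor was left out, and *Alk* (0.24) and *Pnoc* (-0.62) also with onset. The spread of chromosome shifts differed by 0.0192, with 0.00267 to 0.0386 when each tumor was left out (exact p from 0.171 to 0.971). Of 46 called named genes, QLF kept 5, sex as a covariate 26 and the fit without MYCN391 23. Among the 20 not called with sex were *Fam5b*, *Ablim1*, *Eya2*, *Rgs5*, *Notch3*, *Acta2*, *Kdr*, *Bdnf*, *Grb10*, *Ascl2*, *Tfap2a*, *Mitf*, *Car12*, *Megf6*, *Mir431*, *Fcgr4*, *Clec4a1*, *Clec7a* and *Fgr*. No paired analysis was possible because the labels carry mouse identifiers and no replicate numbers shared between genotypes. With 4 tumors a group and a biological coefficient of variation of 0.395, small shifts of single genes were not detectable at this depth, and the 3-read floor limits genes such as *Fat3* and *Astn2*.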

Other observations

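Some of the 93 DEGs that fell are genes known from myeloid cells that are on neither the macrophage nor the neutrophil list. Those given here were picked after their values were seen, and are given as levels without a test. *Itgad* was at 0.855, 4.43, 0.635 and 19.1 CPM in the *Th-MYCN* and 0, 0, 0.193 and 0.0812 CPM in the *Th-MYCN/Casp2*-/- tumors, *Fcgr4* at 5.13, 18.2, 2.83 and 124 and 2.16, 1.41, 0.964 and 1.30 CPM, *Clec4a1* at 1.40, 4.94, 0.635 and 30.9 and 0.792, 0.707, 0.675 and 0.244 CPM and *Fgr*, a Src family kinase, at 1.95, 6.17, 1.10 and 25.9 and 0.216, 1.22, 1.06 and 1.38 CPM. MYCN391 was highest for each of these 4. *Clec7a* (dectin-1), at 13.4, 34.4, 29.7 and 32.1 and 6.77, 11.8, 9.84 and 9.42 CPM, did not show this order, and the macrophage list as a whole had no call and a median log2 fold change of -0.25.

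*Ntrk3*, the neurotrophin-3 receptor, was at 62.9, 11.3, 11.3 and 9.33 CPM in the *Th-MYCN* tumors and 10.6, 2.96, 2.99 and 3.49 CPM in the *Th-MYCN/Casp2*-/- tumors, and *Isl1*, a homeodomain factor of sympathetic neurons, at 1015, 619.8, 645 and 679 and 1004, 803, 656 and 592 CPM. MYCN175 was highest of its group for both. This tumor also had the widest chromosome shifts and an onset at 21 weeks, the latest of its group, and a relation between these was not tested.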
